A study of Mus musculus with 64 samples.

Results

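The nuclear-encoded subunits of mitochondrial complex I were followed in mice across heart, muscle, liver and white fat (white adipose tissue, WAT). Members were all genes of the deposited table whose symbol reads Ndufa, Ndufb, Ndufc, Ndufs or Ndufv followed by a digit, together with Ndufab1, with a mean TPM of at least 1 in the tissue. TPM is a share of all transcripts in a library, corrected for transcript length. They were 38 of 19521 genes. All 38 were members in heart, muscle and WAT, and 37 in liver, where Ndufa4l2 averaged 0.588 TPM and fell outside the limit.

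RNA was sequenced from male C57BL/6 mice of 2 genotypes, wild-type (labelled CTRL) and a Pklr mutant (Pklr-/-, labelled KO). Pklr encodes the pyruvate kinase of liver and red cells, which makes pyruvate in the last step of glycolysis. From the age of 8 weeks, mice of both genotypes received either chow or a high-sucrose diet (HSD) for 8 weeks, and all tissues were collected at 16 weeks. This gave 16 groups of 4 libraries, namely CTRL on chow, CTRL on HSD, labelled KO on chow and labelled KO on HSD in each tissue. The protocol gives 4 mice per genotype and diet, so the 4 libraries of a group come from separate animals. If these were all the mice sampled, libraries of different tissues come from the same mice, but the labels do not say which belong together. Tests between tissues treat all 64 libraries as separate, so their SE and p-values leave out this pairing. The Pklr mutation is carried by the whole animal, and the labels name neither the muscle nor the fat depot.

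Complex I takes electrons from NADH and passes them through a flavin and a chain of iron-sulfur clusters to ubiquinone, while its membrane arm pumps protons. A small set of core subunits carries the chemistry, part of it made in the mitochondrion itself, and a larger set of accessory subunits surrounds and stabilises the core. Heart and oxidative muscle are known for dense mitochondria. Among the members, 7 are core subunits, 9 are accessory subunits of the peripheral (matrix) arm, 1 is the acyl carrier protein Ndufab1 and 19 are accessory subunits of the membrane arm. The other 2 matched the naming rule only: Ndufa4 is now counted with complex IV, and Ndufa4l2 is its paralog.

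Promoter sequence was examined because the members were read as a set. RefSeq promoter windows of GRCm38.p6 were matched for 33 members in 35 windows, and the 250 bases before each start were searched on both strands. The motif of NRF1, a nuclear activator of respiratory chain genes, was spelled GCGCA and GCGC with any base between them, and the ETS motif, the class bound by GABP, was spelled CCGGAAG. The NRF1 spelling was found in 6 of 33 members, or 18.18%, and in 4.233% of all genes with a window. Among expressed genes with promoters of similar base composition it was found in 7.729%. The ETS spelling was found in 3 of 33 members (Ndufb6, Ndufb7 and Ndufs3), or 9.091%. It was found in 7.826% of all genes with a window and in 14.96% of that matched set, and no member held both. The 3 windows shown are those in which a match to NRF1 also lies before the gene's start in the GENCODE annotation, cut back to that start, with the match in capitals.
Ndufa11, chr17:56717512-56717761, plus strand: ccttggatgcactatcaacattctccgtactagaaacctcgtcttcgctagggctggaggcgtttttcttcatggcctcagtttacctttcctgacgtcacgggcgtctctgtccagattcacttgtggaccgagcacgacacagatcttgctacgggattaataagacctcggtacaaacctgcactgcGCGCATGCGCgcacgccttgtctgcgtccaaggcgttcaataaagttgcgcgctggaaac
Ndufb4, chr16:37654454-37654618, minus strand: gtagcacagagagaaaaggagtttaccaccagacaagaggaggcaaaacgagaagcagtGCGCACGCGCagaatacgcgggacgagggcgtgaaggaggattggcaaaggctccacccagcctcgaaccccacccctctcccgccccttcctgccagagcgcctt
Ndufs5, chr4:123718203-123718436, minus strand: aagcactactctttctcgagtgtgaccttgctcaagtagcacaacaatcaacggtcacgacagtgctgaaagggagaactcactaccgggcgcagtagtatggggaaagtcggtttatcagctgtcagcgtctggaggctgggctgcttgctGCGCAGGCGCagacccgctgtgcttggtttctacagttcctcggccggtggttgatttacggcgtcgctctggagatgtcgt
The other matches were GCGCAGGCGC in Ndufa5 and, again, at 79 and 22 bases before the RefSeq start of Ndufb4, GCGCTTGCGC in Ndufa8 and GCGCCTGCGC in Ndufs6. These describe letters in a window and not binding.

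Libraries held between 5724366 and 12188623 estimated counts. Pklr was not lower in liver libraries labelled KO, at 146.8 to 267.6 TPM on chow against 61.59 to 141.2 in CTRL, so genotype is given throughout as labelled. Defining markers matched each labelled tissue: Alb was at least 11570 TPM in liver, Adipoq at least 4180 in WAT, Myh6 at least 1433 in heart and Acta1 at least 9552 in muscle. Some libraries stood apart. The summed heart markers reached 774.6 TPM in labelled-KO chow muscle replicate 2 and at most 22.58 in the other muscle libraries, and CTRL chow liver replicate 1 had the lowest Alb. In 4 libraries the deviation of genes from the tissue mean followed transcript length, with a slope beyond 0.1 on the scale of log2 CPM (a library's counts scaled to a common total) per doubling of length. These were CTRL chow WAT replicates 2 and 4, CTRL HSD liver replicate 3 and CTRL chow muscle replicate 1.

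As a share of TPM, complex I transcripts were most abundant in the striated muscles and least abundant in liver, whereas the scaling of edgeR placed WAT below liver for most members. The summed TPM of the members was 12296 ± 1114 in heart, 14026 ± 1190 in muscle, 7552 ± 769.3 in WAT and 4807 ± 518.5 in liver (SD, n = 16 libraries each). Its range was 9933 to 13891 in heart, 12143 to 17039 in muscle, 5320 to 8450 in WAT and 3845 to 5501 in liver. Heart and muscle overlapped, WAT and liver barely overlapped, and every heart or muscle library lay above every WAT and liver library. The order of heart and muscle depended on what the values were a share of. In heart 36.35 to 48.55% of counts came from mitochondrially encoded genes, against 25.24 to 31% for muscle and at most 11.07% elsewhere. With those genes removed and TPM rescaled, heart came to 29026 ± 1206, muscle to 24231 ± 1194, WAT to 9232 ± 1013 and liver to 5783 ± 711.9.

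Single members differed widely in level. Ndufa4 (chr6:11900292-11907497, minus strand, GRCm38) was the highest in all tissues at a mean of 1645 TPM in heart, 1772 in muscle, 896 in liver and 962 in WAT, above every subunit that is counted with complex I. Ndufb9 and Ndufb8, accessory subunits of the membrane arm, averaged 668 and 673 TPM in heart and 890 and 725 in muscle. Of the core subunits, Ndufv1, which binds flavin and NADH, averaged 360 TPM in heart, 380 in muscle, 94.4 in liver and 150 in WAT. Ndufs1 (chr1:63143596-63176833, minus strand), the largest core subunit of the matrix arm, averaged 331, 304, 64.9 and 92.2 in the same order. At the low end stood Ndufa10, at 40.5 TPM in heart and 8.06 in liver, Ndufb4, at 39.1 in heart and 14.2 in liver, and Ndufa4l2, at 6.82 in heart and 8.85 in WAT.

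The commonest order of mean TPM was muscle, heart, WAT, liver, in 24 of 38 members. Another 6 had the order heart, muscle, WAT, liver, and 37 of 38 had their lowest mean in liver. The exception was Ndufa6, a matrix-arm subunit that binds the acyl carrier protein, at 147 TPM in WAT and 211 in liver. Ndufa7 and Ndufa4l2 had their highest mean in WAT, and Ndufv3, a small subunit at the NADH-oxidising tip, averaged 406 TPM in heart, 385 in WAT, 283 in muscle and 152 in liver. Neighbours in the order often overlapped. In 37 members every muscle library lay above every liver library, but only in 12 did every WAT library lie above every liver library, and only in 5 every muscle library above every heart library.

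**Figure D1:**
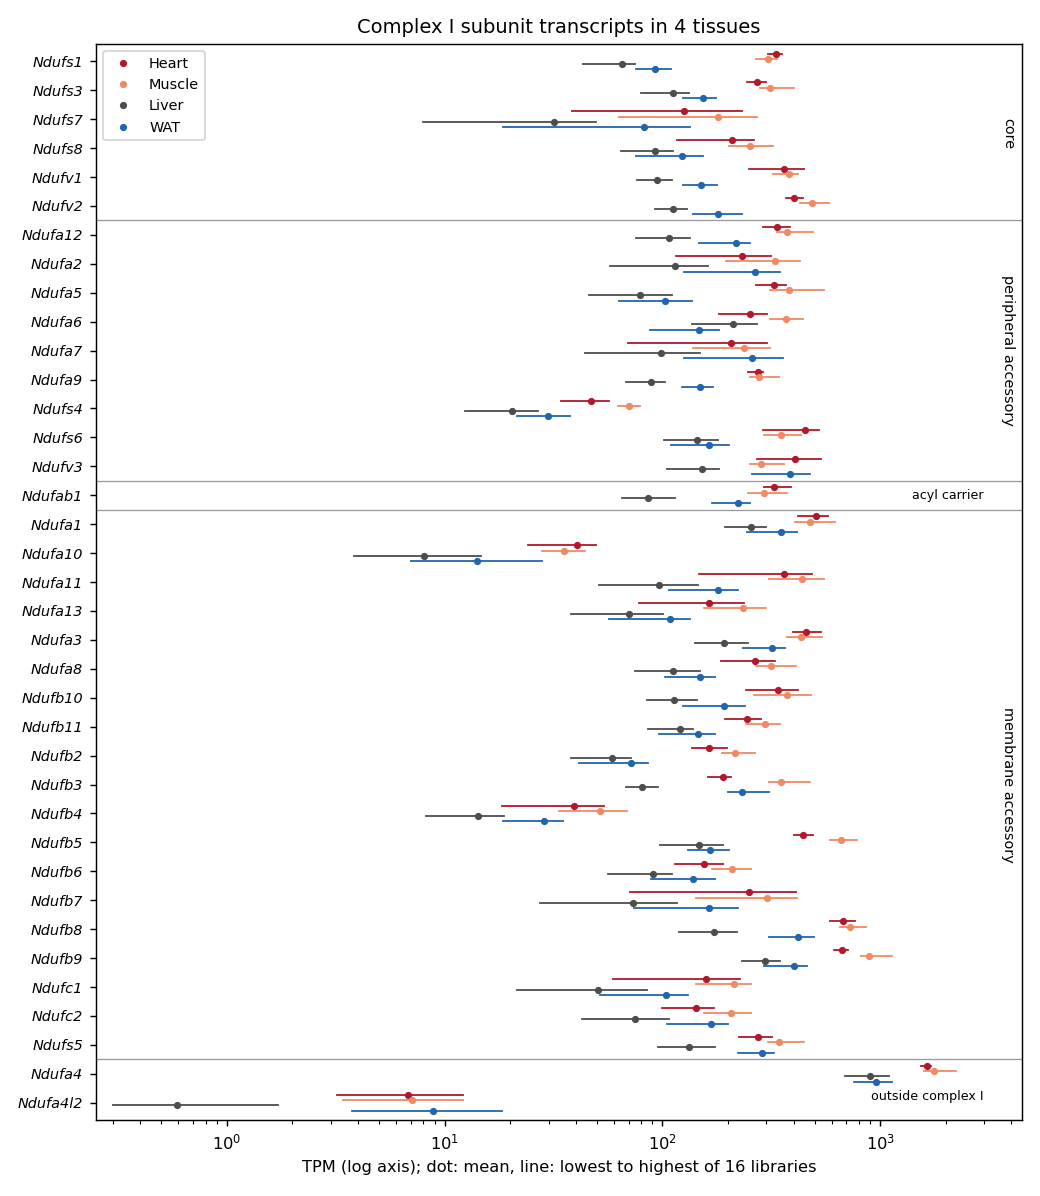
Mean TPM of 37 members (dot) with the lowest to highest of 16 libraries (line) in heart, muscle, liver and WAT, on a log axis and grouped by role. Liver (grey) lies lowest for all members drawn except Ndufa6, and the line of Ndufa4l2 in liver starts at the axis edge because its lowest value is 0.

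In edgeR's quasi-likelihood test over 14592 genes, adjusted by Benjamini-Hochberg at 0.05, all 37 members tested were higher in heart than in liver, where 43.4% of all genes were called higher. All 37 were also higher in muscle than in liver (43.8% of all genes). All 38 were higher in heart than in WAT (38.1% of all genes) and in muscle than in WAT (38.8% of all genes) on this scale, while mean TPM was higher in heart than in WAT for 32 of 38 and in muscle than in WAT for 35. The median log2 difference of the members was 1.42 for heart and 1.52 for muscle against liver, and 2.22 and 2.26 against WAT, while the median of all genes lay between -0.14 and 0.07. Core subunits had medians of 1.95 and 1.88 against liver and 2.66 and 2.60 against WAT. Accessory subunits of the membrane arm had medians of 1.34 and 1.53 against liver and 2.07 and 2.23 against WAT. In bulk tissue, more cells rich in mitochondria and more RNA per cell cannot be told apart.

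The members farthest from the median of the set were the same few in several pairs. Ndufs1 was 2.46 ± 0.06 (log2 difference ± SE) higher in heart than in liver and 3.37 ± 0.06 higher than in WAT. Ndufa5, an accessory subunit of the matrix arm, was 2.17 ± 0.07 and 3.19 ± 0.08 higher, and Ndufa10 2.35 ± 0.13 and 2.99 ± 0.13. At the other end stood Ndufa6, only 0.30 ± 0.07 higher in heart than in liver (adjusted p = 0.000138, edgeR), Ndufb6 (0.80 ± 0.07) and Ndufc2 (0.95 ± 0.09). In muscle against liver, Ndufa6 (0.62 ± 0.07), Ndufv3 (0.68 ± 0.06) and Ndufa1 (0.71 ± 0.06) differed least, and Ndufs7 (2.30 ± 0.24), Ndufs1 (2.10 ± 0.06) and Ndufa5 (2.01 ± 0.07) most. In muscle against WAT the largest differences were those of Ndufb5 (3.2 ± 0.05), Ndufa5 (3.03 ± 0.08) and Ndufs1 (3.01 ± 0.06). The smallest differences against WAT turned with the scale. In heart against WAT, Ndufa7 was 1.15 ± 0.15 higher with edgeR and -0.37 on log2(TPM + 1) with limma, Ndufb3 1.18 ± 0.05 and -0.29, and Ndufa4l2 1.10 ± 0.17 and -0.34. In muscle against WAT, Ndufv3 was 0.69 ± 0.06 higher with edgeR and -0.44 on TPM, Ndufa4l2 0.96 ± 0.17 and -0.26, and Ndufa7 1.13 ± 0.15 and -0.11.

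The comparisons with WAT depended on the scale. On log2(TPM + 1) with limma, the median of all expressed genes was -1.18 for heart against WAT, -1.003 for muscle against WAT and -1.08 for liver against WAT. The members' medians then were 0.71, 1.02 and -0.68. In heart against WAT 31 members were then called higher and 4 lower (Ndufb3, Ndufa7, Ndufa4l2 and Ndufc2), where 93.2% of all genes were called. In muscle against WAT 35 were called higher and 1 lower, Ndufv3 (91.5% of all genes). Set against the median of all genes, the members lay at 2.30 (edgeR) and 1.89 (TPM) in heart against WAT, at 2.40 and 2.02 in muscle against WAT, and at 0.79 and 0.39 in liver against WAT. Liver against WAT itself reversed: 31 of 37 members were higher in liver and 0 lower with edgeR (42.6% of all genes called higher and 42.6% lower), but 1 was higher and 36 lower on TPM (93.5% of all genes called). Ndufa6 was higher in liver on the edgeR scale by 1.99 ± 0.07, and was the member with a higher mean TPM there. Ndufa4 (1.21 ± 0.05) and Ndufs6 (1.27 ± 0.06) were higher in liver with edgeR and lower on TPM (-0.11 and -0.19). Ndufv3 (0.00 ± 0.06), Ndufa7 (0.05 ± 0.15) and Ndufb3 (-0.08 ± 0.05) did not pass with edgeR.

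Between heart and muscle, members differed in both directions with edgeR and were called no more often than genes in general. The balance of directions changed with the scale. With edgeR 13 members were higher in heart and 10 lower, where 68.5% of all genes were called (35.8% higher and 32.8% lower), with a median of -0.02 over the members and 0.03 over all genes. Higher in heart were Ndufs6, a zinc-binding subunit of the matrix arm (0.59 ± 0.06, mean 454 TPM in heart and 350 in muscle), Ndufv3 (0.55 ± 0.06) and Ndufa10 (0.44 ± 0.12). Lower in heart were the membrane-arm subunits Ndufb3 (-0.67 ± 0.05, mean 189 TPM in heart and 352 in muscle) and Ndufb5 (-0.34 ± 0.05, 442 and 663 TPM), and Ndufs4 (-0.44 ± 0.07, 47.2 and 70.2 TPM), whose loss causes a Leigh-like disease in mice. On log2(TPM + 1) 4 members were higher in heart and 25 lower (68.3% of all genes called), and in CTRL chow libraries alone 1 was higher and 10 lower (49.2% of all genes).

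The other genes of the pathway were read from lists of 7 mitochondrially encoded subunits, 19 assembly factors (18 tested) and 8 regulators. All 7 mitochondrially encoded subunits were higher in heart than in muscle (35.8% of all genes called higher), with a median of 0.69. The nuclear-encoded members had a median of -0.02. In liver against WAT all 7 mitochondrially encoded subunits were higher with edgeR (42.6% of all genes called higher), with a median of 1.25. On log2(TPM + 1) 1 was higher and 4 lower (93.5% of all genes called), with a median of -0.18. Of the assembly factors, 8 were higher and 6 lower in heart than in muscle with edgeR, and 2 higher and 11 lower on log2(TPM + 1). These counts lie near the share of all genes called, 68.5% with edgeR and 68.3% on log2(TPM + 1). Foxred1 was 1.69 ± 0.07 higher and Nubpl, which delivers iron-sulfur clusters, 0.85 ± 0.09 higher, while Ndufaf5, which modifies Ndufs7, was lower (-0.76 ± 0.07). Of the 8 regulators, 3 were higher and 4 lower in heart than in muscle with edgeR (68.5% of all genes called). On log2(TPM + 1) 1 was higher and 4 lower (68.3% of all genes called). Those of smallest p with edgeR were Nrf1 (-0.51 ± 0.07), the coactivator Ppargc1a (-0.91 ± 0.14), Gabpb1, a subunit of GABP (0.38 ± 0.07), and Esrra (-0.71 ± 0.14).

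Within tissues, diet was compared in each genotype, genotype on each diet, and the difference between the diet effects was tested as an interaction, in 20 comparisons. HSD against chow in CTRL and labelled KO against CTRL on chow share the CTRL chow libraries, so their values are given side by side and not as separate evidence. Members passed the test in 3 of the 20: WAT on HSD in CTRL, WAT on HSD in labelled KO, and liver on HSD in CTRL. Counts of members at an unadjusted p under 0.05 are given without the share of all genes at that limit, so they do not show an excess. In the comparisons where DESeq2 called 0 members, it called at most 1.32% of all genes outside the WAT interaction, and limma at most 0.272% in liver, heart and muscle.

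**Figure D2:**
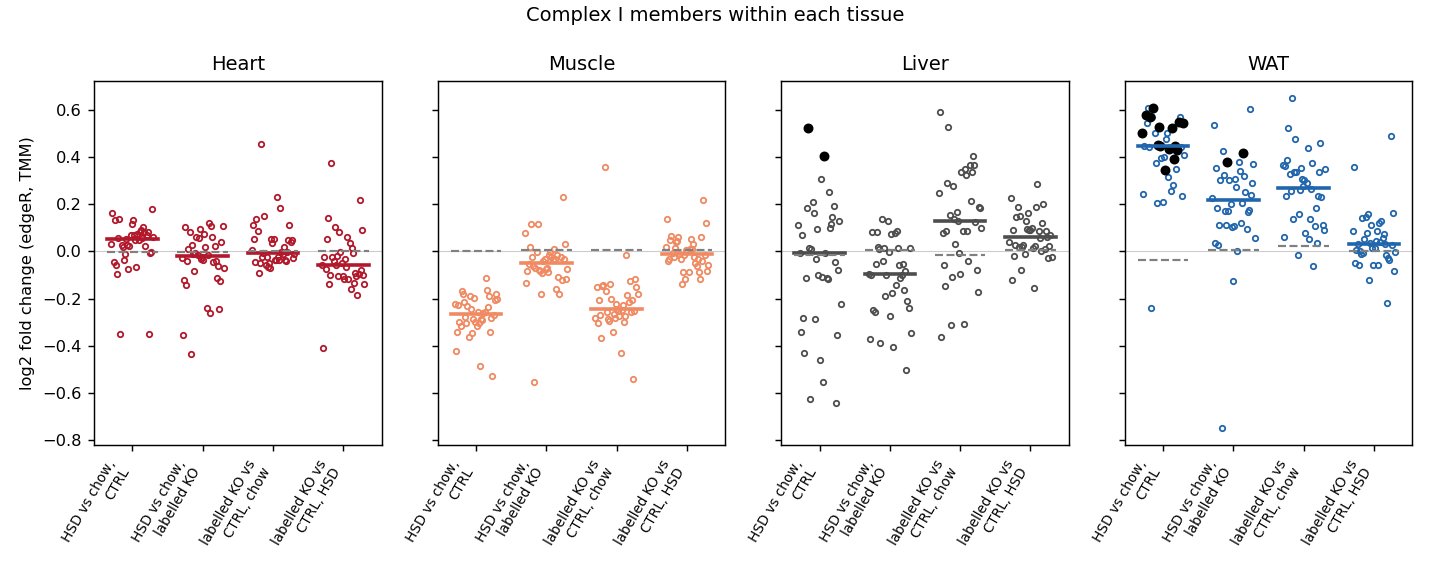
Log2 fold change (edgeR, TMM-scaled) of each member in the diet and genotype comparisons of each tissue. Filled black points passed the adjusted threshold, thick lines are the members' median and dashed grey lines the median of all genes tested; the WAT points on HSD in CTRL lie around 0.44 and the muscle points around -0.27.

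In CTRL WAT, 15 of 38 members rose on HSD and 0 fell with edgeR over all libraries, and 0 passed once the 2 chow libraries of steep length slope were left out. Of all genes 4.77% were called over all libraries, 1.85% higher and 2.92% lower. The members' median log2 fold change was 0.44 against -0.04 over all genes, and 37 of 38 were positive. Ndufa4 stood at 818, 762.2, 861 and 783 TPM on chow and 1089.6, 1072, 1047 and 1136 on HSD. Ndufa12, a matrix-arm subunit, stood at 204, 148, 212 and 181 TPM on chow and 243, 241, 230.5 and 243 on HSD. In both genes every HSD library lay above every chow library, and the changes were 0.57 ± 0.10 (adjusted p = 0.00852, edgeR) and 0.58 ± 0.12 (adjusted p = 0.0154).

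Ndufv2, a core subunit with an iron-sulfur cluster, stood at 168, 146, 187 and 138 TPM on chow and 198, 231, 188 and 204 on HSD, a rise of 0.54 ± 0.11 (edgeR, adjusted p = 0.0163). Ndufs6 stood at 153, 109, 157 and 134 TPM on chow and 188, 182, 166 and 181 on HSD, a rise of 0.55 ± 0.12 (edgeR, adjusted p = 0.0209). The groups did not overlap in either, and chow replicates 2 and 4 were the lowest of the 8 libraries. By role, the core subunits Ndufv2 and Ndufs3 were among those that rose, with 3 of 9 matrix-arm accessory subunits (Ndufa12, Ndufs6 and Ndufa6) and the acyl carrier Ndufab1. Of the 19 membrane-arm subunits 7 rose (Ndufa1, Ndufb5, Ndufb9, Ndufb10, Ndufb11, Ndufc2 and Ndufs5). Ndufs1 (0.28 ± 0.12, adjusted p = 0.165, edgeR) and Ndufv1 (0.24 ± 0.11, adjusted p = 0.212) did not pass, and Ndufa4l2 was the member with a negative value (-0.24 ± 0.28). In TPM the groups did not overlap in 7 members, all higher on HSD (1.69% of all genes), and in 0 lower (18.3% of all genes).

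The calls in CTRL WAT changed with the libraries included. Without chow replicates 2 and 4, which had length slopes beyond 0.1, edgeR called 0 members, where 0.0656% of genes were called. That fit has fewer libraries, so the loss of calls does not by itself show a smaller change. In it 16 members had an unadjusted p under 0.05, 36 of 38 were positive and the median was 0.27. The part of the length slope was not tested. With the trend on transcript length removed 4 members passed (Ndufa4, Ndufa12, Ndufv2 and Ndufs6, median 0.34), where 2.36% of all genes did. With the trend on counts per TPM removed 0 passed (1.56% of all genes), with 13 at an unadjusted p under 0.05 and a median of 0.21. Leaving out 1 library gave 3 calls without chow replicate 2, 23 without replicate 3 and 1 without replicate 4. It gave 2, 3, 4 and 8 calls without HSD replicates 1, 2, 3 and 4. Here and in the other comparisons, counts with 1 library left out are given without the share of all genes called in that fit. DESeq2 called 21 (9.24% of all genes) and limma on TPM 5 (11.8%). Genes of cytosolic ribosomal proteins, which are also short, had a median of 0.28 with 83 of 93 positive and 3 called.

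Marker sums of other cell types differed between diets in the same libraries. All 5 endothelial markers were measured, and their summed TPM was 246.8 to 364.3 on chow and 166.2 to 204.8 on HSD in CTRL. The 5 brown fat markers summed to 31.05 to 44.997 on chow and 65.63 to 91.53 on HSD, most of it Cox8b, with Ucp1 at no more than 0.2016 TPM in any WAT library. Slow-fibre sums were 57.94 to 74.14 on chow and 44.96 to 50.73 on HSD. Macrophage sums (745.1 to 1014 and 504.0 to 960.2) and fibroblast sums (1980 to 2666 and 1632 to 2572) overlapped. Their part in the change of the members was not tested.

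**Figure D3:**
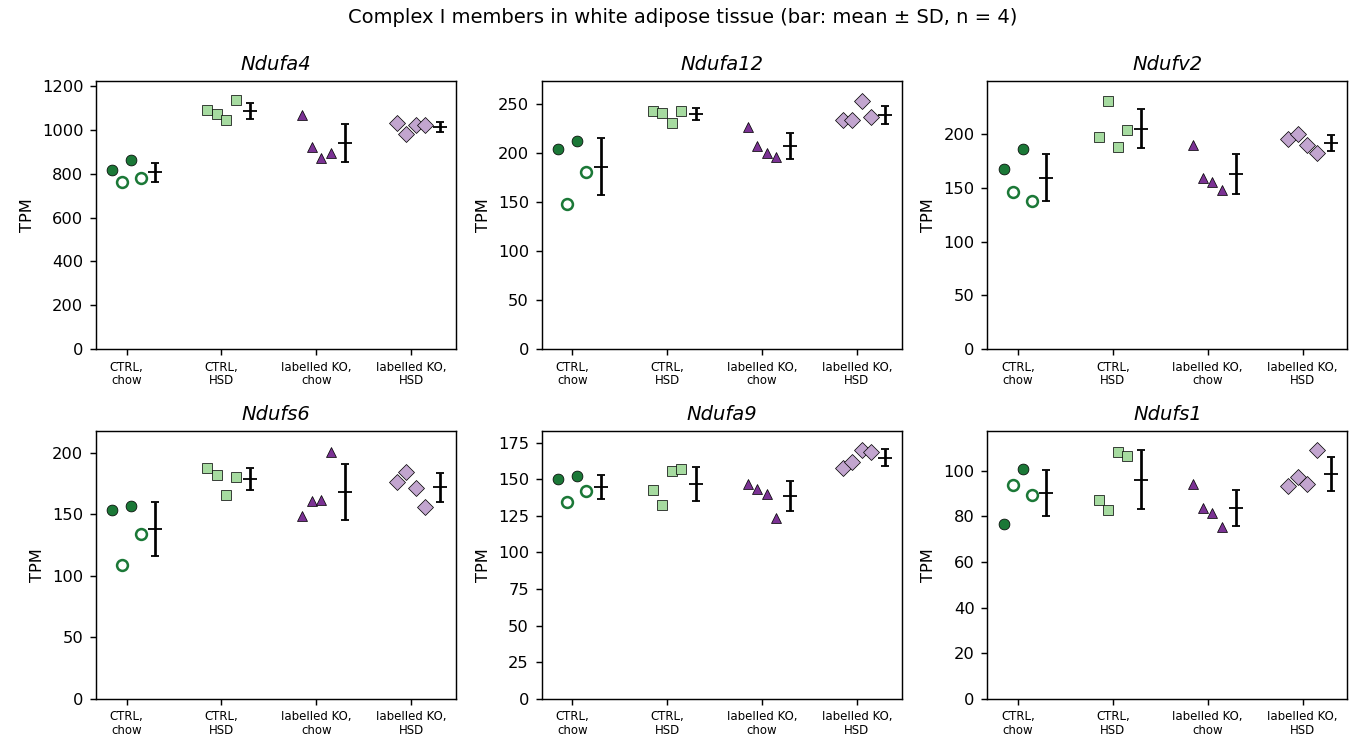
TPM of 6 members in the 16 WAT libraries by group, with mean and SD (n = 4). Open symbols mark CTRL chow replicates 2 and 4, the WAT libraries with a length slope beyond 0.1; for Ndufa4 the CTRL HSD libraries (1047 to 1136) lie above all CTRL chow libraries (762.2 to 861).

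In labelled-KO WAT, 2 of 38 members rose on HSD with edgeR, where 6.38% of all genes were called and 2.7% were called higher. Ndufa9 (chr6:126821721-126849136, minus strand), an accessory subunit next to the ubiquinone site, stood at 147, 143, 140.2 and 124 TPM on chow and 158, 162, 170.3 and 169 on HSD, without overlap, a rise of 0.38 ± 0.10 (adjusted p = 0.0337, edgeR). Ndufs1 stood at 94.5, 83.8, 81.7 and 75.6 TPM on chow and 93.2, 97.5, 94.2 and 109 on HSD. The Ndufs1 groups overlapped by 1 chow library, and the rise was 0.42 ± 0.12 (adjusted p = 0.0442, edgeR). Both were outside the 15 called in CTRL. The members' median was 0.22 against 0.00 over all genes, 36 of 38 were positive, and 5 did not overlap and were higher on HSD (2.33% of all genes). Ndufa4 (0.30 ± 0.10, adjusted p = 0.0802) and Ndufa12 (0.35 ± 0.12, adjusted p = 0.0801) did not pass with edgeR, and Ndufa4l2 was at -0.75 ± 0.28.

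None of these libraries had a length slope beyond 0.1, and the counts moved with the method, from 0 with limma on TPM (8.81% of all genes) to 7 with DESeq2 (10.6%), 7 with the length trend removed (7.17%) and 9 with length and GC trends removed (7.87%). Without labelled-KO chow replicate 2, 3 or 4, or labelled-KO HSD replicate 3 or 4, 0 members passed, and without HSD replicate 1, 1 passed. Endothelial sums were 299.2 to 375.6 TPM on chow and 212.8 to 227.4 on HSD here too, and brown fat sums were 74.54 to 118.1 and 56.90 to 154.4. Fibroblast sums, 2252 to 2833 on chow and 1456 to 2209 on HSD, did not overlap here, and liver marker sums in WAT were 1698 to 2747 and 4179 to 5310. Most of the liver marker sum was Cyp2e1, at 1678 to 5280 TPM over all WAT libraries, where Alb reached at most 271.9. The part of these marker sums in the result was not tested.

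In WAT the difference between the diet effects of the genotypes did not pass for any member. The interaction passed for 0 members with edgeR, 0 with DESeq2 and 0 with limma (0.573% of all genes called by edgeR, 3.92% by DESeq2 and 0.354% by limma), with 2 members at an unadjusted p under 0.05. The smallest p was at Ndufs6 (-0.37 ± 0.17, adjusted p = 0.247, edgeR) and Ndufv3 (-0.35 ± 0.16, adjusted p = 0.266). The members' median difference was -0.26, and -0.07 without the 2 libraries of steep length slope. Ndufs1 and Ndufa9, called in labelled KO, had fold changes of 0.42 and 0.38 there and 0.28 and 0.21 in CTRL.

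Genotype on chow passed for 0 members in WAT with edgeR (6.68% of all genes called), with 14 at an unadjusted p under 0.05, 2 called higher by DESeq2 (10.4% of all genes) and 0 by limma (5.15%). The median was 0.27, with 36 of 38 positive. Ndufv3 stood at 419, 384, 416 and 477 TPM in labelled KO and 363, 259, 365 and 326 in CTRL, without overlap (0.35 ± 0.12, adjusted p = 0.0809, edgeR). Ndufb11 differed by 0.35 ± 0.12 (adjusted p = 0.0845). Without CTRL chow replicate 3, 6 members were called higher, and without replicates 2 and 4 the median was 0.10 with 0 at an unadjusted p under 0.05. Brown fat sums were 74.54 to 118.1 TPM in labelled KO and 31.05 to 44.997 in CTRL on chow, and sums of the 5 epithelial markers 51.22 to 85.71 and 37.65 to 45.18, and their part was not tested. On HSD 0 members passed with edgeR, DESeq2 or limma (0.106% of all genes called by edgeR), 0 had an unadjusted p under 0.05 and the median was 0.03. The smallest p there were those of Ndufa9 (0.16 ± 0.10) and Ndufv1 (0.16 ± 0.11).

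Few other genes of the pathway passed in WAT. In CTRL on HSD, Timmdc1, an assembly factor of the membrane arm, rose by 0.39 ± 0.11 (adjusted p = 0.0487, edgeR) and mt-Nd3 by 0.85 ± 0.19 (adjusted p = 0.0239). In all, 1 of 18 assembly factors, 1 of 7 mitochondrially encoded subunits and 0 regulators rose there (1.85% of all genes called higher). Of the assembly factors, 17 of 18 were positive. In labelled KO on HSD, mt-Nd6 rose by 0.59 ± 0.16 (adjusted p = 0.0408, edgeR) and Tfam, the mitochondrial transcription factor, by 0.38 ± 0.11 (adjusted p = 0.0475), and all 7 mitochondrially encoded subunits were positive.

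In CTRL muscle, no member passed on HSD with edgeR (0.091% of all genes called), although all 38 had negative values. Their median was -0.27 against 0.00 over all genes, and 26 had an unadjusted p under 0.05. The share of all genes at that limit is not given, so this count does not show an excess. DESeq2 called 9 lower, where it called 2.28% of all genes, and limma on TPM 0. Ndufb8 stood at 858, 819, 746 and 802 TPM on chow and 713, 661, 718 and 702 on HSD (-0.29 ± 0.07, adjusted p = 0.101, edgeR). Ndufa8, a cysteine-rich subunit facing the intermembrane space, stood at 409, 329.6, 353 and 364 TPM on chow and 308, 286, 321 and 284 on HSD (-0.36 ± 0.09, adjusted p = 0.108, edgeR). In both genes the groups did not overlap, as in 9 members in all, each lower on HSD (1.62% of all genes).

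Chow replicate 1, with a length slope of -0.156, had the highest member sum of all muscle libraries at 17039 TPM. Without it the median was -0.19, all 38 stayed negative and 16 had an unadjusted p under 0.05, and with the trend on counts per TPM removed the median was -0.12 with 4 positive. White fat markers (5 of 5 measured) summed to 29.95 to 33.85 TPM on chow and 51.56 to 98.51 on HSD in CTRL muscle, while slow-fibre sums (19513 to 25027 and 20564 to 23927) and fast-fibre sums overlapped. Their part in the result was not tested.

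Labelled KO against CTRL muscle on chow, which uses the same CTRL chow libraries, passed for 0 members with edgeR and 0 with limma (0% of all genes called by edgeR), 19 had an unadjusted p under 0.05 and DESeq2 called 1 lower (0.091% of all genes). The median was -0.25 and 37 of 38 were negative. Ndufb5 stood at 627, 589.5, 691 and 708 TPM in labelled KO and 783, 708.3, 717 and 737 in CTRL, without overlap (-0.25 ± 0.08, adjusted p = 0.343, edgeR). Ndufb8 differed by -0.25 ± 0.07 (adjusted p = 0.324). Without CTRL chow replicate 1 the median was -0.15, and without labelled-KO replicate 2, the library with heart markers, it was -0.24. Endothelial sums did not overlap, at 95.92 to 112.5 TPM in labelled KO and 67.28 to 94.04 in CTRL, and their part was not tested.

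The remaining muscle comparisons passed for 0 members with edgeR, DESeq2 and limma. HSD in labelled KO had a median of -0.05 with 3 members at an unadjusted p under 0.05 (0.00827% of all genes called by edgeR), and labelled KO against CTRL on HSD -0.01 with 0 (0% of all genes). Ndufs4 and Ndufab1 had the smallest p in both, at -0.18 ± 0.07 and -0.18 ± 0.08 for diet and -0.12 ± 0.07 and -0.14 ± 0.08 for genotype. The interaction had a median of 0.24 with 36 of 38 positive and 6 at an unadjusted p under 0.05 (0% of all genes). The median was 0.18 without CTRL chow replicate 1, and 0.05 with the trend on counts per TPM removed. Ndufb8 (0.26 ± 0.10) and Ndufa6 (0.30 ± 0.12) had its smallest p. The assembly factors were mostly negative in CTRL on HSD as well, with 1 of 18 positive, and 0 of them passed.

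In CTRL liver, 2 of 37 members rose on HSD with edgeR, where 4.67% of all genes were called and 2.48% were called higher. Ndufa5 stood at 46.2, 50.5, 62.2 and 60.7 TPM on chow and 65.0, 87.0, 86.8 and 91.2 on HSD, a rise of 0.52 ± 0.14 (adjusted p = 0.0386, edgeR). Ndufb8 stood at 119.6, 146, 127 and 143 TPM on chow and 190.5, 209, 186 and 200.5 on HSD, a rise of 0.40 ± 0.11 (adjusted p = 0.0441, edgeR). The groups did not overlap in either gene, as in 5 members, all higher on HSD (10.2% of all genes). The set as a whole had a median of -0.01 with 17 of 37 positive, in a fit that includes CTRL HSD replicate 3 (length slope 0.145). The members' median deviation from the tissue mean was 0.14, 0.10, -0.46 and -0.10 log2 CPM in CTRL HSD replicates 1 to 4. In CTRL chow replicates 1 to 4 it was -0.25, 0.01, -0.04 and 0.07. The part of HSD replicate 3 in the median of the set is not given here. In labelled KO the same genes stood at 85.0, 74.2, 93.9 and 83.3 (Ndufa5) and at 150.4, 159.6, 179 and 182 (Ndufb8) on chow, all above their CTRL chow libraries. On HSD they stood at 95.2, 85.2, 110.1 and 87.3 and at 179, 172, 205 and 221.

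Neither call in CTRL liver held without chow replicate 1, 2 or 3 or HSD replicate 2 or 4, each of which left 0, and 1 was left without HSD replicate 1. Liver markers summed to 25026 to 64700 TPM on chow and 75264 to 81198 on HSD in CTRL (5 of 5 measured), and endothelial markers to 16.88 to 21.51 and 24.11 to 34.92. The 5 brown fat markers summed to 105.1 to 214.2 and 216.3 to 473.4. Nearly all of that sum was Elovl3, at 104.3 to 473.4 TPM over all liver libraries, with Ucp1 at 0 and Cox8b at most 3.27. The part of these marker sums was not tested. HSD in labelled KO passed for 0 members with edgeR, DESeq2 and limma (0.00888% of all genes called by edgeR), with 1 at an unadjusted p under 0.05 (Ndufv3, -0.35 ± 0.13), followed by Ndufv1 (-0.24 ± 0.12), and a median of -0.10. The interaction passed for 0 with all of these tools (0% of all genes), with 2 at an unadjusted p under 0.05, Ndufa5 (-0.50 ± 0.19, adjusted p = 0.477, edgeR) and Ndufb8 (-0.33 ± 0.16, adjusted p = 0.574).

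Labelled KO against CTRL liver passed for 0 members on chow with edgeR, DESeq2 and limma (0% of all genes called by edgeR), with 11 at an unadjusted p under 0.05 and a median of 0.13. Ndufa5 had the smallest p (0.53 ± 0.14, adjusted p = 0.196, edgeR), followed by Ndufb8 (0.35 ± 0.11, adjusted p = 0.237). Brown fat marker sums, again nearly all Elovl3, were 263.6 to 337.5 TPM in labelled KO and 105.1 to 214.2 in CTRL there, and their part was not tested. On HSD 0 passed with the same tools (0.0711% of all genes), 0 had an unadjusted p under 0.05 and the median was 0.06, with the smallest p at Ndufb9 (0.19 ± 0.11) and Ndufa4 (0.19 ± 0.12). That median was -0.05 without CTRL HSD replicate 3, the liver library with a length slope of 0.145. Among the pathway's other genes, Ppargc1a rose by 1.15 ± 0.20 on HSD in CTRL liver (adjusted p = 0.00712, edgeR). The assembly factor Dmac2 fell by 0.70 on the log2 scale (SE 0.17, adjusted p = 0.0278, edgeR).

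In heart, 0 members passed in any comparison with edgeR, DESeq2 or limma. The medians were 0.05 for HSD in CTRL (0.0247% of all genes called by edgeR), -0.02 for HSD in labelled KO (0.14% of all genes), -0.01 for labelled KO on chow (0% of all genes), -0.06 for labelled KO on HSD (0.0412% of all genes) and -0.05 for the interaction (0.00824% of all genes). Unadjusted p under 0.05 was reached by 0, 1, 0, 2 and 1 members in that order. Ndufa10, a subunit related to nucleoside kinases, had the smallest p in the 3 comparisons that involve labelled-KO HSD hearts. It stood at 48.5, 41.8, 44.3 and 45.6 TPM in labelled KO on chow and 35.2, 32.8, 38.5 and 24.1 on HSD. CTRL HSD hearts stood at 45.1, 40.3, 49.4 and 36.7. HSD in labelled KO gave -0.36 ± 0.12 (adjusted p = 0.349, edgeR), labelled KO against CTRL on HSD -0.41 ± 0.12 (adjusted p = 0.475) and the interaction -0.52 ± 0.16 (adjusted p = 0.782). Next came Ndufb9 for HSD in labelled KO (0.12 ± 0.07) and Ndufs5 for labelled KO on HSD (-0.19 ± 0.08). For HSD in CTRL the smallest p were those of Ndufv2 (0.18 ± 0.09) and Ndufb3 (0.12 ± 0.07), and for labelled KO on chow those of Ndufa4l2 (0.46 ± 0.30) and Ndufc1 (0.18 ± 0.17).

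The members are short, with a median transcript length of 733.5 bases (382 to 2413) against 2083.25 over all genes, and 31 of 38 were under 1000 bases. The median deviation of the members from the tissue mean was -0.69 log2 CPM in CTRL chow WAT replicate 2 (length slope 0.165), -0.30 in replicate 4 (0.104) and -0.46 in CTRL HSD liver replicate 3 (0.145). It was 0.39 in CTRL chow muscle replicate 1 (-0.156). Ribosomal protein genes deviated by -0.47, -0.23, -0.49 and 0.40 in the same libraries. No heart library had a slope outside -0.05 to 0.04.

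**Figure D4:**
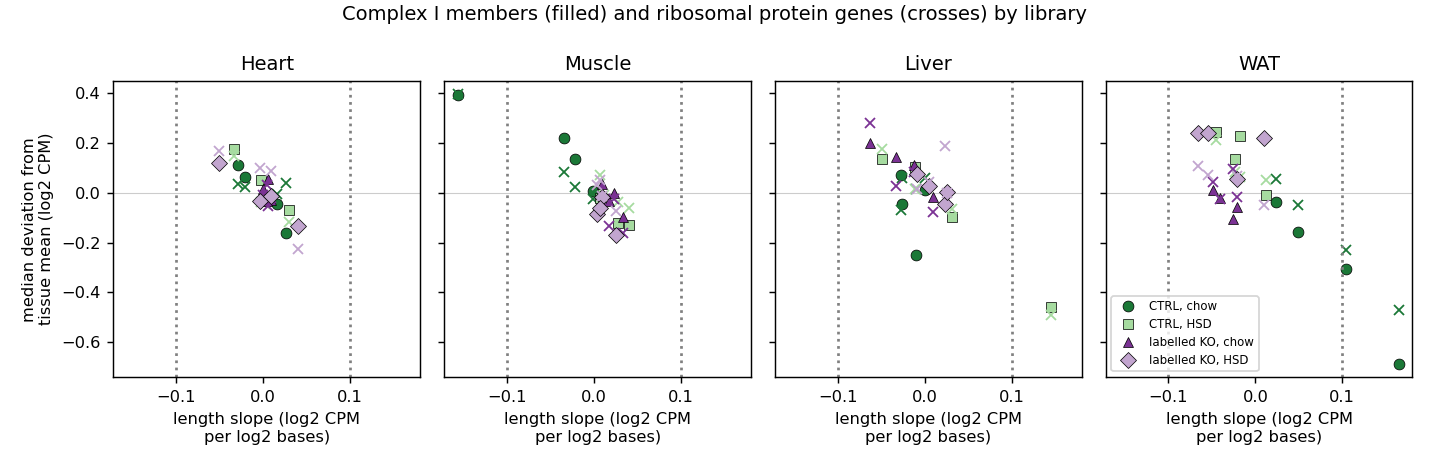
Median deviation from the tissue mean (log2 CPM) of the members (filled symbols) and of cytosolic ribosomal protein genes (crosses) against the length slope of each library, by tissue. Dotted lines mark slopes of -0.1 and 0.1; the 4 libraries beyond them show the members at -0.69, -0.46, -0.30 and 0.39.

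Members also varied between libraries by their base composition, a split chosen after the values were seen. The median coefficient of variation over 16 libraries was 22.7% in heart for the 12 members with a transcript GC of at least 55%, and 8.61% for the other 26. It was 15.8 and 10.2% in muscle, 24.5 and 15.6% in liver (11 and 26 members), and 17.8 and 12.7% in WAT. The split had exceptions on both sides. In heart Ndufb9, with a GC of 55.4%, varied by 5.25%, and Ndufc1, with a GC of 47.9%, by 24.5%. Ndufs7 (chr10:80249121-80256794, plus strand), the core subunit that carries the last iron-sulfur cluster before ubiquinone, has a GC of 60.1% and varied by 49.6% in heart, 34.3% in muscle, 40.5% in liver and 37.6% in WAT. Ndufa9, with a GC of 49.1%, varied by 5.07, 7.89, 11.9 and 8.76% in the same tissues.

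Ndufs7 was below its tissue mean in all 4 tissues for 4 of the 16 title numbers, above it in all 4 for another 4, and mixed for 8. In the libraries numbered 1 it stood at 47.8 TPM in heart, 63.5 in muscle, 12.6 in liver and 53.05 in WAT. In those numbered 16 it stood at 39.99, 63.3, 18.2 and 45.95. Its tissue means were 125, 180, 31.7 and 82.0, so all 8 of these libraries lay below their tissue mean. The lowest values of heart, liver and WAT lay at other numbers, with 38.6 TPM at number 8, 7.97 at number 15 and 18.5 at number 10. The GC slope of a library, the deviation of genes in log2 CPM per 10 points of GC, had the same sign in all 4 tissues for 6 of 16 numbers, and at number 16 it was -0.25 in heart, -0.18 in muscle, -0.18 in liver and -0.14 in WAT. The labels do not say what a number marks, and the part of a shared animal or of library preparation in this was not tested. No call of the within-tissue comparisons rested on Ndufs7.

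**Figure D5:**
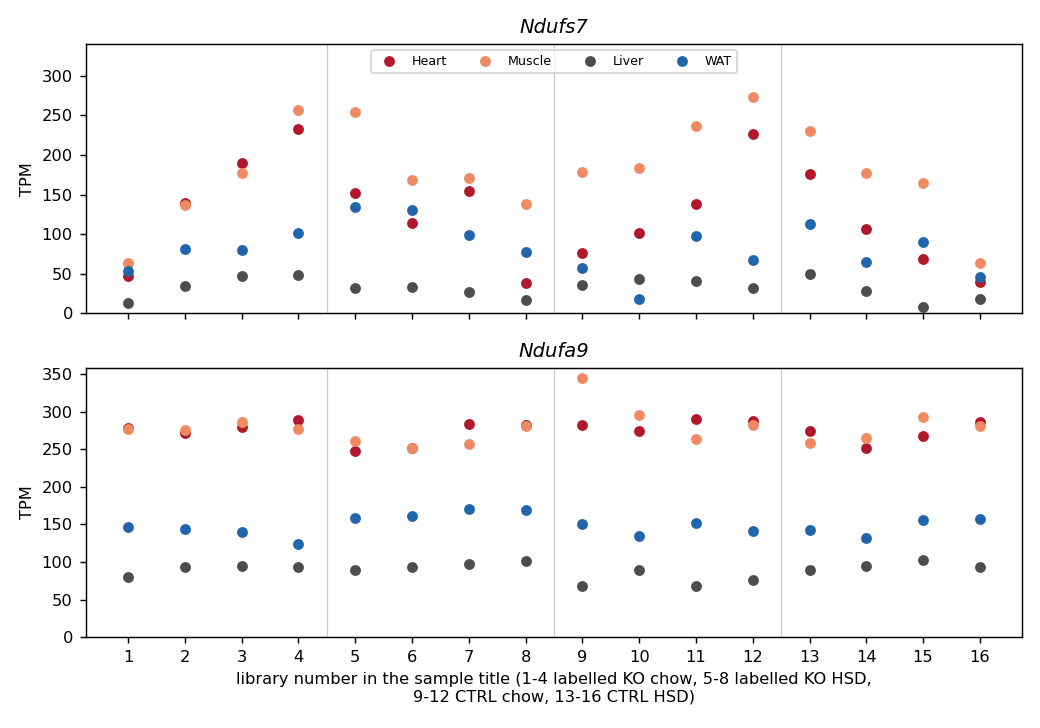
TPM of Ndufs7 and of Ndufa9 by tissue against the library number in the sample title, with groups separated by vertical lines. Ndufs7 runs from low values at numbers 1 and 16 (12.6 to 63.5 TPM) to values above its tissue means at numbers 4 and 13, while Ndufa9 spans a narrower relative range, from a coefficient of variation of 5.07% in heart to 11.9% in liver.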

How the data were processed

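Per the labels, RNA of 4 tissues was sequenced in 16 groups of 4 libraries, with 4 mice per genotype and diet. The authors deposited 1 table of estimated counts and 1 of TPM per gene, made with kallisto against GRCm38 per the submitters' processing notes (versions not given in the sources used here). All 64 columns were mapped by title.

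The deposited estimated counts were rounded to whole numbers. Tests used edgeR 4.0.16, run under R 4.3.3 (TMM, filterByExpr with a minimum count of 10, robust quasi-likelihood F test, 2-sided, Benjamini-Hochberg over all genes). Each tissue was 1 fit with 4 group means, and tissues were compared in 1 fit of 64 libraries, averaging 4 groups. Alternatives were DESeq2 1.42.0, its size factors, limma 3.58.1 on log2(TPM + 1), no filter, libraries left out, and trends removed. Trends on transcript length were fitted by lowess (span 0.5) over non-members, although loess had been planned, and entered as offsets; those on GC and on counts per TPM were chosen after the data were seen. Length and GC are medians over protein-coding transcripts in GENCODE vM21, available for 99.2% of genes.

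The members, lists and named genes were chosen with earlier results of these data known. Named were Ndufa4, Ndufa4l2, Ndufv1 and Ndufs1, members past the threshold (the 4 of smallest p in each direction if over 6, otherwise all), the 2 of smallest p where none passed, and those farthest from the members' median between tissues. Members of highest and lowest mean TPM were named too, and Ndufs7 was chosen after its values were seen. Counts and medians cover all members, but 1 member is not reported here by itself. Depth limits precision for low members. The fits were tested on simulated data. GENCODE lists further copies of Ndufab1, Ndufb4, Ndufa11 and Ndufs6 that could share their reads, so the levels of these 4 are less certain.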

Additional observations from a re-analysis of the deposited data

Results flagged for a closer look

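In 188 sets of 4 libraries, the gap between the highest or lowest value and its neighbour was set against the range of all 4. In 5 sets it passed the limit of 0.829, which is fewer than the about 1 in 20 that chance alone gives. Ndufa5 was low in CTRL HSD liver replicate 1 (64.99 TPM). Ndufa12 was high in labelled-KO HSD WAT replicate 3 (252.9 TPM) and low in CTRL HSD WAT replicate 3 (230.5 TPM). Ndufa4 was low in labelled-KO chow heart replicate 2 (1556 TPM) and in labelled-KO HSD heart replicate 1 (1534 TPM). Without the library concerned, edgeR called 1 member in CTRL liver on HSD and 4 in CTRL WAT on HSD.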

How the results depend on the processing

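With edgeR as the reference, the heart and muscle members stayed higher than those of liver in every alternative run, and 0 members passed in any heart comparison under any of them. Where the share of all genes called in a fit was not given above, the counts that follow do not show an excess among the members. Between heart and muscle the majority turned without the filter (19 called, 8 higher and 11 lower), on TPM (29 called, 4 and 25) and in CTRL chow alone (11 called, 1 and 10). Liver against WAT turned on TPM (37 called, 1 higher and 36 lower). On TPM, among the members named for each pair, values turned negative for Ndufa4l2 (-0.34), Ndufa7 (-0.37) and Ndufb3 (-0.29) in heart against WAT, for Ndufv3 (-0.44), Ndufa4l2 (-0.26) and Ndufa7 (-0.11) in muscle against WAT, and for Ndufv3 (-1.34), Ndufa7 (-1.43), Ndufa4 (-0.11) and Ndufs6 (-0.19) in liver against WAT. For these the cause was not tested. Summed TPM without mitochondrially encoded genes was 29030 in heart, 24230 in muscle, 5783 in liver and 9232 in WAT. In CTRL liver on HSD, 0 members passed without the filter, 4 on TPM, 0 with only the libraries compared, and 0 to 2 leaving out 1 library. In CTRL WAT on HSD, 5 passed on TPM, 4 with the length trend removed, 0 with the trend on counts per TPM removed, 6 with length and GC trends removed, 0 without the libraries of steep slope, 5 with only the libraries compared, and 1 to 23 leaving out 1 library. In labelled-KO WAT on HSD these were 0, 7, 8, 9, 5 and 1, with 1 without the filter, 7 with DESeq2, 5 with the GC trend removed and 0 to 3 leaving out 1 library. For WAT on chow by genotype, DESeq2 called 2, and leaving out 1 library gave 0 to 6. DESeq2 called 1 in muscle on chow by genotype and 9 in CTRL muscle on HSD. The title number as a replicate block gave 26 calls in heart against muscle (13 higher and 13 lower), 33 in liver against WAT and changed no other count. Over all genes, title numbers did not meet the rule used for pairing tissues, a correlation of deviations over 0.1 in every pair of the same number. Of 96 such pairs, 23 were over 0.1, with a median of 0.05. The median for different numbers was -0.01. Deviations were taken from each group's own mean, which ties that value to the same-number value, so it is no separate reference. Ndufs7 and the GC slopes of some numbers ran alike across tissues. Within a tissue no number is shared, so no block could be fitted there.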
